A study of Homo sapiens with 18 samples.

Results

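MYC binding was compared between cells with a hairpin against G9a (shG9a_1) and cells with a scramble hairpin (shSCR), by the ChIP-seq peak lists deposited for each library. The comparison takes all peaks on chromosomes 1 to 22 of 6 of the 18 samples of the series: 3 shSCR and 3 shG9a_1 MYC immunoprecipitations, with 107455 of the 151062 peaks in the series' 9 lists. shG9a_1 replicates 2 and 3 carry the main comparison, and replicate 1, whose list is very short, is described on its own. All 6 libraries come from MCF10A, an immortalised breast epithelial cell line, and all carried the plasmids pBABE-hygro-MYC, for ectopic MYC, and pMN-IRES-GFP-PI3KH1047R, for a mutant PI3K. The hairpin was the only labelled difference: pLKO-tetON-puro carried either shSCR or shG9a 1, and doxycycline at 2 µg/mL for 72 h induced it in both groups. MYC was precipitated with the homemade antibody N262. The series design calls the 3 replicates biological, and the lists measure neither G9a RNA nor G9a protein, so the depletion itself was not checked here.

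MYC is a transcription factor that binds DNA as a dimer with MAX, most tightly at the E-box CACGTG, and in cells with abundant MYC it also occupies most active promoters. Its long-known targets include genes for ribosome assembly, translation and nucleotide metabolism, while CDK inhibitor genes are among those it represses. G9a, encoded by EHMT2, works with its partner GLP, encoded by EHMT1, to methylate lysine 9 of histone H3, a mark of repressed chromatin, and it has been studied as a cofactor of MYC-dependent repression.

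Sequences upstream of 6 genes are printed, for genes whose regions had contrasting outcomes and also differed in strength in shSCR. The first 3 genes, which encode the polyamine enzyme spermidine synthase (SRM) and the nucleolar proteins nucleophosmin (NPM1) and nucleolin (NCL), had a MYC region near the start site in all 6 libraries, the shortest list included. Each line gives the 250 bases before the RefSeq start, 5′ to 3′ on the gene's strand, from build GRCh38.p14, and capitals mark CACGTG (the same on both strands) and the related CACGCG, or CGCGTG on the other strand.
SRM (chr1:11060019-11060268, minus strand): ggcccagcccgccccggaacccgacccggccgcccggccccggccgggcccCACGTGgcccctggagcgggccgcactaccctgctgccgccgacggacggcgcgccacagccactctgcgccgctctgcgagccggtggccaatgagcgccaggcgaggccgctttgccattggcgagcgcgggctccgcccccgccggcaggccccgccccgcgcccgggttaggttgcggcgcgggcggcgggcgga
NPM1 (chr5:171387599-171387848, plus strand): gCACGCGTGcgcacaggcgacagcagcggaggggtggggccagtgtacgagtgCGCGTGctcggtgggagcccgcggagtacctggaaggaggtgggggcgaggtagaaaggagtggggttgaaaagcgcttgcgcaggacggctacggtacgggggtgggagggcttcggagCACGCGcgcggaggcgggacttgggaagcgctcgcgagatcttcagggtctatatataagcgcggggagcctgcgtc
NCL (chr2:231464485-231464734, minus strand): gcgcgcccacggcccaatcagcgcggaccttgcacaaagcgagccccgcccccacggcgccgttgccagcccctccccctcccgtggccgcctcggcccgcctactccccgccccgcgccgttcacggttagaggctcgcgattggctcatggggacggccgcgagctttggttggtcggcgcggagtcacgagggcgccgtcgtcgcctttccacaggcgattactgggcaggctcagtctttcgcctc
The next 3 genes encode the CDK inhibitor p27 (CDKN1B), integrin alpha 6 (ITGA6) and the EGF receptor (EGFR). Their best region near the start site was called in every shSCR library and in no shG9a_1 library. Regions within 5 kb of the start numbered 1 at CDKN1B, 4 at ITGA6 and 2 at EGFR, and only the best was read for calls.
CDKN1B (chr12:12717118-12717367, plus strand): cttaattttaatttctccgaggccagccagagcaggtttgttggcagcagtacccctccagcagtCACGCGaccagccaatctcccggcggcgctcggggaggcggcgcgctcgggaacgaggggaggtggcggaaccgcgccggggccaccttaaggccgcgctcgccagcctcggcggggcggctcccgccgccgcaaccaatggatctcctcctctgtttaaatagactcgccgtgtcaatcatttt
ITGA6 (chr2:172427086-172427335, plus strand): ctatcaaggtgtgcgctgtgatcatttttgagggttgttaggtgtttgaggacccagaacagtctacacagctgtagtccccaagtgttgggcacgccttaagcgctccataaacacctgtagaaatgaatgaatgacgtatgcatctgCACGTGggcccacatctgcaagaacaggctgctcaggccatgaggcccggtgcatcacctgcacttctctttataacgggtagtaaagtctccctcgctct
EGFR (chr7:55018767-55019016, plus strand): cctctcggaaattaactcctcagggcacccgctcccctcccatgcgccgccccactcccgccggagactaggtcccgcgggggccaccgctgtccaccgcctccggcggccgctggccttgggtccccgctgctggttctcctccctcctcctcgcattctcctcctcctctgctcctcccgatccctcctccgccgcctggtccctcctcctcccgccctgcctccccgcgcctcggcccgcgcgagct
SRM held 1 CACGTG, 199 bases before the start, and ITGA6 held 1, at 101 bases. NPM1 held 4 matches to CACGCG or CGCGTG, a pair of which overlap, CDKN1B held 1, and NCL and EGFR held no match of either kind. CACGTG lay in this window at 6.34% of all 35116 RefSeq promoter entries and CACGCG or CGCGTG at 9.72%. Among listed genes (below) called in all shSCR libraries and in both shG9a_1 replicates 2 and 3, 16 of the 69 with a promoter entry (23.2%) held CACGTG and 13 (18.8%) held CACGCG or CGCGTG. Among those called in neither replicate, 2 of 8 held CACGTG and 2 of 8 held CACGCG or CGCGTG. Of the 11 listed genes called in shG9a_1 replicate 1, the set of SRM, NPM1 and NCL, 1 (9.09%) held CACGTG. In that set 2 (18.2%) held CACGCG or CGCGTG. The windows are upstream promoter sequence and not the peaks, whose coordinates are in build hg19. The shSCR strength of the region (defined below) was 99.4 at SRM, 99.96 at NPM1 and 99.9 at NCL. At CDKN1B, ITGA6 and EGFR it was 57.2, 56.7 and 80.9. The part of the sequences in the outcomes was not tested.

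Fewer MYC peaks were called with shG9a_1 than with shSCR. The shSCR lists held 29307, 34051 and 19781 peaks, and shG9a_1 replicates 2 and 3 held 11309 and 12896, so that the shortest shSCR list was longer than either. The means were 27713 ± 7267 (SD, n = 3) and 12102.5 ± 1122 (SD, n = 2), a difference of -15610.5 peaks with p = 0.2 (two-sided exact permutation test), where 0.1 is the smallest p that 3 libraries against 2 allow, so no result of this kind can pass 0.05. Peaks covered 8.87, 12.2 and 6.31 Mb in shSCR and 3.06 and 3.75 Mb in shG9a_1 (difference -5.71 Mb, exact permutation p = 0.2). The files give no read totals. Pileups and local backgrounds recovered from the authors' fold and p-values gave depths relative to the shSCR mean, with the shortest peak of a list taken as its fragment length, of 1.04, 1.04 and 0.926 in shSCR and 0.839 and 1.09 in shG9a_1 replicates 2 and 3. If the caller scaled libraries to their inputs, these depths are those after scaling and not the reads sequenced. The 2 groups overlapped in this measure and did not overlap in peak number, and the part of sequencing depth in the peak number was not tested. In these bulk libraries fewer cells with bound MYC and less bound MYC per cell cannot be told apart. Neither can be told from unequal ChIP efficiency, input depth or antibody recovery between libraries, which were not measured. The authors' median fold enrichment was 6.60, 6.67 and 6.95 in the shSCR lists and 6.37 and 6.62 in the shG9a_1 lists.

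Sites bound in the scramble cells were retained in order of their strength. Merging the 6 lists gave 41566 regions, and 14058 of them were called in all 3 shSCR libraries. Replicate 2 called 8108 of these (57.7%, Wilson 95% interval 56.9 to 58.5%) and replicate 3 called 9081 (64.6%, 63.8 to 65.4%). Both replicates called 6679 (47.5%), exactly 1 of them called 3831 (27.3%), and neither called 3548 (25.2%). Each shSCR library called 88.7, 95.4 and 67.0% of the 15847, 14730 and 20967 regions found in the other 2 shSCR libraries, so the shortest shSCR list also missed many regions. These larger sets, found in 2 lists, are not the 14058 regions called in all 3, and the shares are not on like sets. With shSCR replicate 3 left out, both shG9a_1 replicates called 32.9% of 21098 regions, against 47.5% of the 14058. Intervals cover counting error only.

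A region's strength is the rank percentile of its best peak by q-value within an shSCR list, averaged over the 3 lists, from 0 (weakest) to 100. In the weakest decile of the 14058 regions, shG9a_1 replicates 2 and 3 called 16.1 and 21.3%. In decile 5 they called 48.7 and 60.4%, and in the strongest 99.6 and 99.9%. The share rose at every step in both replicates. A shorter list loses its weakest peaks first, so the lists were also limited to the same number of top peaks, 11309 each. Then 6573 regions were called in all 3 shSCR libraries, shG9a_1 replicates 2 and 3 called 83.5 and 85.4% of them, and neither called 432 (6.57%). At these equal numbers, each shSCR library called 82.8 to 87.8% of the regions found in the other 2. shG9a_1 replicates 2 and 3 called 76.6 to 80.5% of the same sets of regions, below the shSCR library for each set. This last comparison was added after the data were seen and has no test. The limit counts peaks and not separate sites, and it left the list of shG9a_1 replicate 2 whole while the shSCR lists lost their weaker peaks. The parts of both in the lower shares were not tested.

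**Figure D1:**
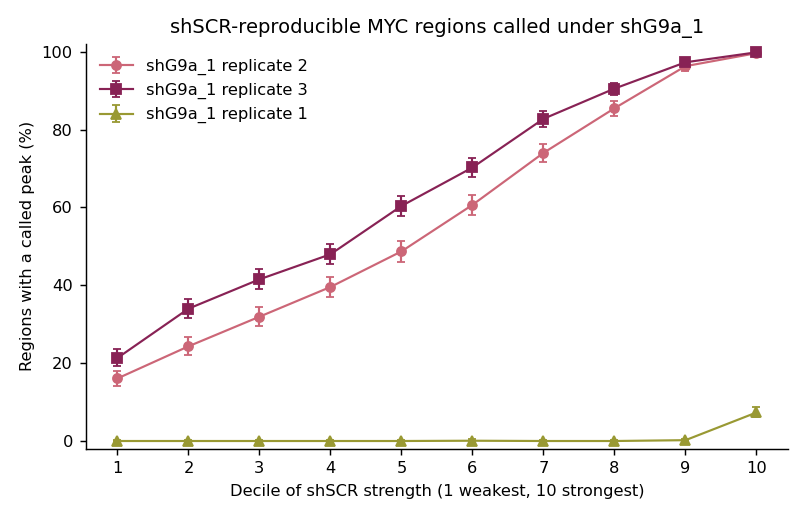
Share of regions called in all 3 shSCR libraries that each shG9a_1 library also called (vertical axis, %), by decile of shSCR strength (horizontal axis; 1405 or 1406 regions in each decile); bars are Wilson 95% intervals. Replicates 2 and 3 climb from 16.1 and 21.3% in the weakest decile to 99.6 and 99.9% in the strongest, while replicate 1 stays near 0 until the strongest decile, where it reaches 7.33%.

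Strong regions missing from both replicates were few. No region of the strongest decile was missing from both, while 8 of decile 9 and 35 of decile 8 were. The strongest of them was chr1:202545976-202546260 (hg19), with a strength of 92.7 and authors' fold enrichments of 13.8, 14.03 and 11.03 in the shSCR lists. The next, chr5:106212393-106212711, had folds of 20.2, 15.2 and 15.7, and the sixth, chr7:128350679-128350977, had 18.6, 13.5 and 11.7. The 10 strongest missing regions were 285 to 748 bp wide, against a median of 698 bp for merged regions in decile 9, and lay on 7 chromosomes. The opposite state was rare: of 7119 regions called in both shG9a_1 replicates, 22 (0.309%) were called in no shSCR library. They were weak, with a median rank percentile of 30.4 in the shG9a_1 lists, and the strongest, chr2:54342623-54343104, had folds of 8.20 and 6.99. Of the regions in shG9a_1 replicates 2 and 3, 95.7 and 96.2% were also called in an shSCR library.

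The order of the sites that both groups kept was compared next, because ranks within the same set of regions do not depend on list length. The 6679 regions called in all 5 libraries were ranked by q-value within each library, and the ranks were turned into normal scores and tested with limma, with Benjamini-Hochberg adjustment. No shared region passed an adjusted p of 0.05 in either direction (0%), and the lowest adjusted p was 0.541. At an unadjusted p under 0.05, 507 regions (7.59%) differed, 231 of them (3.46%) with a higher rank in shG9a_1 and 276 (4.13%) with a lower one. Both shG9a_1 ranks lay above all 3 shSCR ranks at 802 regions (12%) and below all 3 at 783 (11.7%). Leaving out any 1 library gave 0 adjusted calls as well.

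Ranks also varied between libraries of 1 group. Spearman's rho across the 6679 shared regions, given as a description since sites of a library share its depth and background, was 0.715 to 0.766 between shSCR libraries, 0.631 to 0.700 between an shSCR and an shG9a_1 library, and 0.621 between shG9a_1 replicates 2 and 3. The median move of a region was 11.5 to 12.8 percentiles between shSCR libraries, 13.0 to 14.7 between groups and 14.9 between the 2 shG9a_1 libraries. The 2 shG9a_1 libraries thus differed from each other more than either differed from any shSCR library on both measures. The shared regions lay lower in the shG9a_1 lists, at median percentiles within the whole list of 66.6 and 71.0, against 86.6, 89.1 and 81.2 in shSCR. The part of this position in the spread of ranks was not tested. Of the 668 top-ranked regions of a library, 67.7 to 71.7% were shared between shSCR libraries, 63.5 to 70.1% across groups and 64.7% between the shG9a_1 libraries.

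The shared regions of smallest p are given as values, since none passed the adjusted test. At chr12:26266811-26267619 the rank percentile was 82.3, 64.6 and 71.8 in shSCR and 7.28 and 4.33 in shG9a_1 replicates 2 and 3 (normal score difference -2.21, SE 0.383, limma adjusted p = 0.541). At chr1:45792410-45793025 it was 53.7, 65.6 and 74.8 against 5.38 and 3.51. At chr9:140024013-140024720 it was 37.7, 24.7 and 69.1 against 0.255 and 1.39. Each of these 3 regions ranked higher in every shSCR library than in either shG9a_1 library, where it stood near the bottom, and the shSCR values were widest apart at the third. The other direction began from the bottom of the shSCR ranks. At chr17:2833434-2833689 the percentile was 1.17, 0.195 and 1.74 in shSCR and 34.0 and 48.1 in shG9a_1 (difference 2.19, SE 0.405, limma adjusted p = 0.541), and at chr3:186545008-186545473 it was 6.74, 5.79 and 14.6 against 66.9 and 57.4. The groups did not overlap at any of the 10 regions of smallest p in each direction, a separation that choosing by p favours. Over all shared regions, both shG9a_1 ranks lay above all shSCR ranks at 12% and below them at 11.7%. The chosen regions lay on 9 chromosomes for the lower ranks and 7 for the higher. Mean shSCR percentiles were 25.8 to 76.4 among the 10 lower-ranked regions and 0.996 to 9.42 among the 10 higher-ranked ones.

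At the same shared regions, shG9a_1 peaks were narrower. The median summed peak width was 491, 603 and 451 bp in shSCR and 288 and 327 bp in shG9a_1, and every shSCR library lay above both shG9a_1 libraries. The difference was -207.5 bp (exact permutation test, two-sided: p = 0.1, as small as 10 splits allow), and with all lists limited to 11309 peaks, a setting added after the data were seen, it was -191 bp (exact permutation p = 0.1). Shared regions of at least 1 kb made up 8.52, 15.7 and 7.07% in shSCR and 1.54 and 2.68% in shG9a_1. The authors' median fold at these regions moved in the same direction, at 11.4, 13.7 and 10.9 against 7.44 and 8.15, and its part in the width was not tested. Summits lay close together: the median distance between the summits of a region was 32 to 35 bp between shSCR libraries, 36 to 40 bp across groups and 43 bp between the shG9a_1 libraries.

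The spread along the genome depended on how it was counted. In the full lists, 59.9, 60.9 and 54.7% of shSCR peaks and 42.9 and 45.7% of shG9a_1 peaks had another peak of the list within 10 kb. With 11309 top peaks per list the order turned, to 35.6, 32.0 and 37.1% in shSCR and 42.9 and 41.6% in shG9a_1, a difference of 7.35 percentage points (exact permutation test, two-sided: p = 0.1, as small as 10 splits allow). When peaks within 1 kb were first joined into sites and lists cut to 9587 sites, a setting chosen after the data were seen, the shares were 20.2, 18.3 and 17.9% against 20.4 and 19.9%, the groups overlapped, and the difference was 1.295 points (exact permutation p = 0.3). The difference thus shrank from 7.35 to 1.295 points once near peaks counted as 1 site. At equal peak numbers, shSCR peaks touched 2047, 2051 and 2027 of the genome's 1 Mb bins and shG9a_1 peaks 1985 and 1971. Of the regions missing from both shG9a_1 replicates, 20.9% had a region called in both within 10 kb, against 20.1% of the regions called in both.

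**Figure D2:**
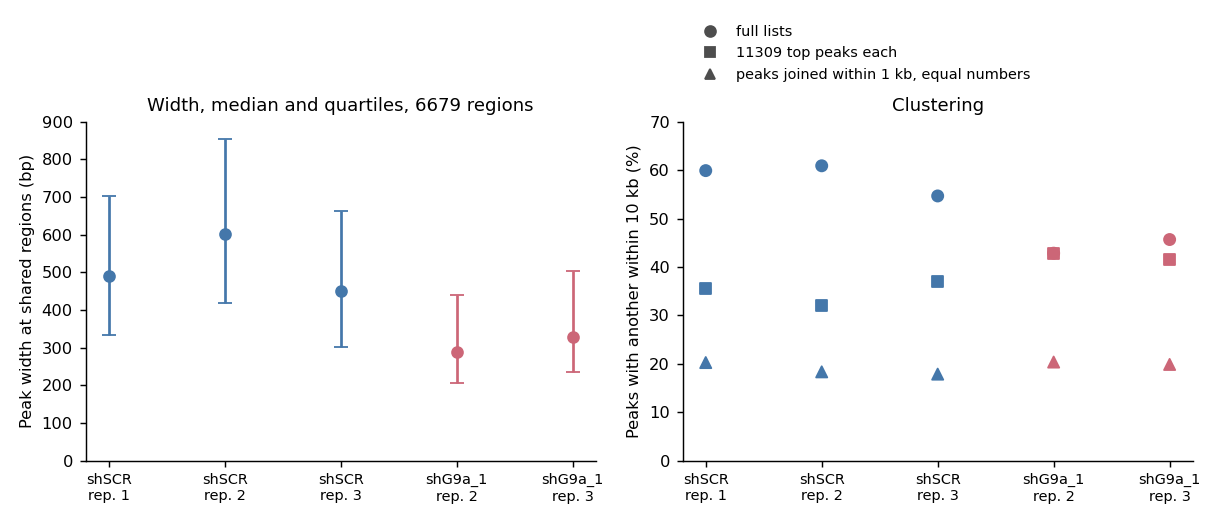
Left, peak width in bp at the 6679 regions called in all 5 libraries (points, medians; bars, lower and upper quartiles). Right, percentage of peaks with another peak of the same list within 10 kb, in full lists (circles), with 11309 top peaks each (squares) and with peaks joined within 1 kb (triangles); shSCR in blue, shG9a_1 in red. Median widths of shG9a_1 lie below all shSCR medians, and the order of the groups in clustering turns between full lists and equal peak numbers.

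No chromosome passed the test for a changed share of peaks (limma on log2 shares, Benjamini-Hochberg over 22 chromosomes; 0 called (0%), 4 at an unadjusted p under 0.05). Chromosome 18 held 2.00, 2.01 and 1.83% of the shSCR peaks and 1.77 and 1.63% of the shG9a_1 peaks (log2 difference -0.20, SE 0.055, limma adjusted p = 0.151). Chromosome 20 held 3.18, 3.29 and 3.28% against 3.42 and 3.53% (0.10, SE 0.029, limma adjusted p = 0.151). The groups did not overlap on either in the full lists. With 11309 top peaks per list both overlapped, and the log2 difference was -0.09 on chromosome 18 and 0.013 on chromosome 20 (limma adjusted p = 0.280 and 0.835). Without shSCR replicate 3, 7 chromosomes passed. Shares in shG9a_1 were then higher on chromosomes 16, 17, 19 and 20 and lower on 6, 13 and 18. That fit gave every chromosome the same SE, 0.0327, whereas the SE differed between chromosomes in the main fit. The parts of the omitted library and of this common SE in the 7 calls were not tested. On chromosome 19 shSCR replicate 3 held 5.50%, the other shSCR libraries 4.68 and 4.83%, and the shG9a_1 libraries 5.50 and 5.45%. The share of shSCR regions called in both shG9a_1 replicates ran from 43.1% on chromosomes 4 and 14 to 53.8% on chromosome 16.

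Named loci were read at 114 genes in 11 functional lists, each gene taking the best region within 5 kb of its start site. A gene counts as called where this region was called, and calls at other regions in the window were not counted. Start sites are hg19 positions in whole kb from general knowledge, since no hg19 annotation was used. All 114 symbols are in the RefSeq table of GRCh38.p14, the 94 genes with a promoter entry lie on the same chromosome there, and the distance between neighbouring listed genes agreed within 2 kb in 17 of 17 pairs. Of the 103 genes called in all 3 shSCR libraries, 82 (79.6%) were called in both shG9a_1 replicates 2 and 3, 12 in 1 of them and 9 in neither. Over all 14058 regions 47.5% were called in both, but the listed genes had stronger regions, with a median strength of 93.3 against 66.8, and the 2 shares are not at like strength. With equal peak numbers 73 of 81 genes were called in both and 1 in neither.

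The lists of growth genes had high median strengths, and few of their regions were missing from a shG9a_1 replicate. All 14 nucleolar ribosome biogenesis genes, all 10 translation and ribosomal protein genes and all 6 genes of RNA-binding proteins that were called in every shSCR library were called in both shG9a_1 replicates, with median strengths of 98.5, 95.5 and 97.8. These medians lie in decile 10, where both replicates called 99.5% of all regions, and decile 9 had 94.2%. At NPM1, which encodes a nucleolar histone chaperone, the authors' fold was 62.4, 53.0 and 69.2 in shSCR and 34.2 and 42.5 in shG9a_1, and the rank percentile among shared regions was 99.9, 99.7 and 99.9 in shSCR and 99.9 in both shG9a_1 libraries. PCBP1, which encodes a poly(C)-binding protein, had rank percentiles of 99.8, 99.98 and 99.9 in shSCR and 99.9 and 99.8 in shG9a_1 and the highest strength of any listed gene. At RPL13A, a ribosomal protein gene with the weakest region of its list, the percentile was 14.7, 20.4 and 13.5 in shSCR and 22.6 and 17.3 in shG9a_1. Its strength was 63.1, and the lowest strength was 89.3 among the nucleolar genes and 76.8 among the RNA-binding ones. Of 16 metabolic genes 14 were called in both replicates and 2 in 1 of them. Of 7 genes for mitochondrial proteins and chaperones 6 were called in both, and TFAM, the mitochondrial transcription factor, in 1. The median strengths of the metabolic and mitochondrial lists, 95.8 and 98.5, also lie in decile 10, and their lowest strengths were 60.4 and 78.7.

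The lists of cell-cycle, stress and epithelial genes had lower median strengths than those of the growth genes. Of the G1 cyclin, CDK and E2F genes in all shSCR lists 7 of 9 were called in both shG9a_1 replicates, and of the stress, immediate-early and other genes named as MYC-repressed 9 of 12, with median strengths of 72.5 and 78.4. In the deciles of those medians, 6 and 7, both replicates called 46.9 and 64.8% of all regions. The shares called in both were lower in the CDK inhibitor and basal epithelial lists, for which the medians lie in deciles 5 (34.8%) and 6, and no difference between lists was tested. Among 5 CDK inhibitor genes in all shSCR lists, CDKN1C alone was called in both replicates, CDKN1A (p21) and CDKN2D in replicate 3 only, and CDKN1B and CDKN2C in neither; their median strength was 60.1. At CDKN1B the shSCR folds were 9.80, 8.97 and 5.51. Among 8 basal mammary epithelial genes, KRT5 and CD44 were called in both, CDH1, LAMB3 and SFN in 1, and KRT17, EGFR and ITGA6 in neither, with a median strength of 71.0. EGFR had the strongest region of the 9 genes called in neither, at 80.9, with shSCR folds of 9.46, 14.02 and 9.79. In its decile of strength, decile 8, 2.49% of regions were called in neither replicate. EGFR lay near the lower edge of that decile, 80.3, and in decile 7 the share was 8.04%. The other 8 genes called in neither, E2F1, CDKN1B, CDKN2C, BTG2, EHMT1, DNMT1, KRT17 and ITGA6, had strengths of 37.9 to 64.2, in deciles 2 to 5, where 53.7 to 25.7% of regions were in that state.

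**Figure D3:**
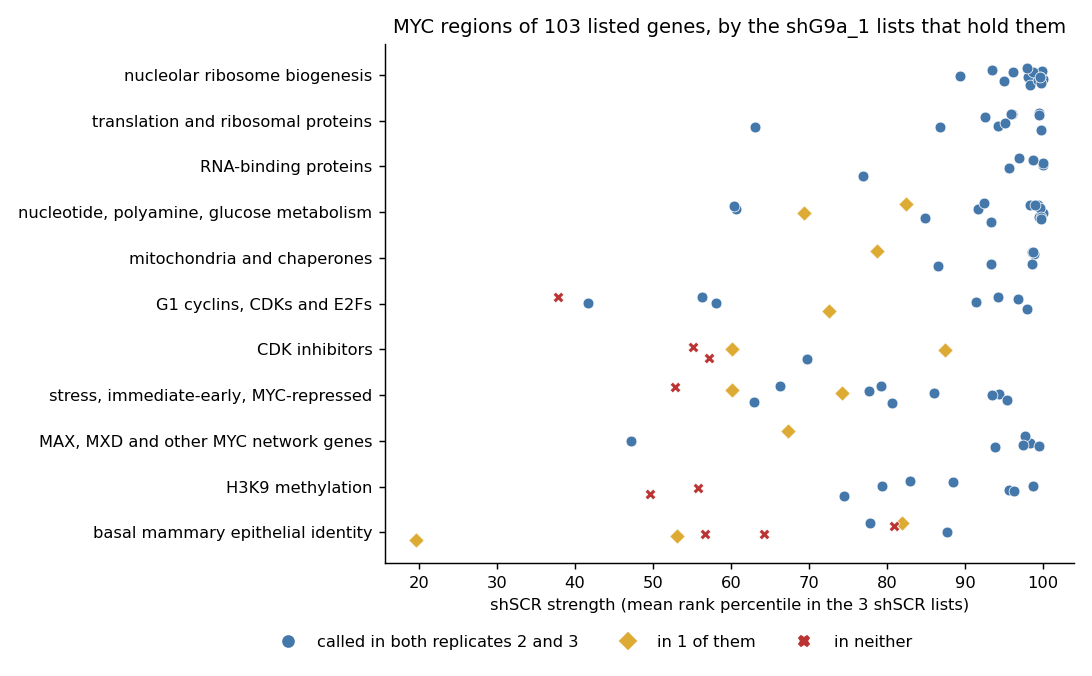
Strength of the MYC region in shSCR (horizontal axis, mean rank percentile in the 3 shSCR lists) at 103 genes called in all shSCR libraries, by gene list (vertical axis; vertical scatter within a list has no meaning). Circles mark genes called in both shG9a_1 replicates 2 and 3 (82 genes), diamonds in 1 (12) and crosses in neither (9); crosses lie at 80.9 or below.

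The H3K9 methylation genes include the hairpin's own target. The region at EHMT2 was called in all 5 libraries, with rank percentiles of 17.2, 65.5 and 46.9 in shSCR and 48.2 and 31.6 in shG9a_1 (normal score difference -0.05, SE 0.462, limma adjusted p = 0.991), and the groups overlapped. Of the 9 genes of this list in all shSCR lists, 7 were called in both replicates, while EHMT1, for the partner GLP, and DNMT1, the maintenance DNA methyltransferase, were called in neither. The median strength of the 9 was 82.9, in decile 8, where both replicates called 78.5% of all regions. CBX5 and CBX3, for heterochromatin proteins, share their region with HNRNPA1 and HNRNPA2B1, and each such region counts under both genes. Among 7 genes of the MYC network in all shSCR lists, 6 were called in both, and MGA, for a MAX partner, in 1. Their median strength was 97.5, in decile 10, where both replicates called 99.5% of all regions. MGA had a strength of 67.3, in decile 6 (46.9%). MAX itself, MYC's dimer partner, had percentiles of 96.1, 92.3 and 92.3 against 93.6 and 84.7.

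Ranks at the 82 listed genes called in all 5 libraries gave no adjusted call, and the lowest adjusted p was 0.627. Both shG9a_1 ranks lay above all shSCR ranks at 9 genes (10.98%) and below at 13 (15.9%), against 12% and 11.7% of all shared regions. MLX, for a MAX-like protein that pairs with glucose-sensing factors, had percentiles of 9.26, 8.33 and 4.29 in shSCR and 45.1 and 46.7 in shG9a_1 (difference 1.37, SE 0.372, limma unadjusted p = 0.00397, adjusted p = 0.627). SHMT2, the mitochondrial serine hydroxymethyltransferase, had 18.7, 0.719 and 61.1 against 63.4 and 85.5 (difference 1.72, SE 0.673, limma adjusted p = 0.627), with a wide spread in shSCR. These were the only listed genes with an unadjusted p under 0.05. ODC1, the first enzyme of polyamine synthesis, had 98.8, 98.8 and 95.4 against 93.3 and 83.2, and KRT5, a basal keratin, had 47.0, 55.4 and 63.8 against 29.9 and 32.4 (limma adjusted p = 0.677 and 0.731). Neither pair of groups overlapped, and neither gene passed the test.

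**Figure D4:**
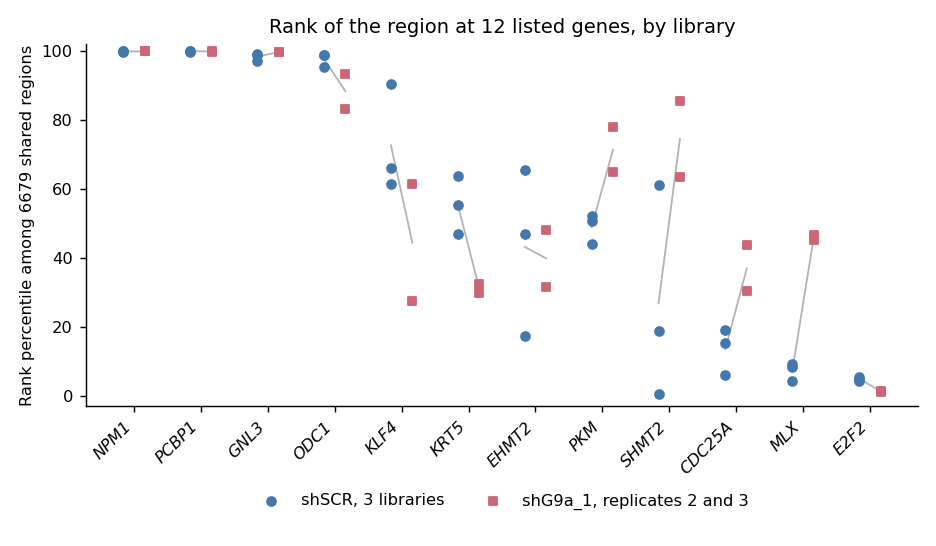
Rank percentile (vertical axis) of the region at 12 listed genes among the 6679 shared regions, in the 3 shSCR libraries (blue circles) and shG9a_1 replicates 2 and 3 (red squares); grey lines join group means, and the genes were chosen for display after their values were seen. MLX moves from 9.26 or below to 45.1 or above, while NPM1 and PCBP1 stay at the top of the ranks in all 5 libraries.

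shG9a_1 replicate 1 held 111 peaks in 107 regions, and every one of these regions was called in all 5 other libraries. They were mostly among the strongest sites: 103 of 107 lay in the strongest decile of shSCR strength, which made up 7.33% of that decile, and the list as a whole called 0.761% of the 14058 regions. Their median rank percentile among shared regions was 98.3 to 98.5 in each of the other 5 libraries, and the lowest was 3.89, in shSCR replicate 3. Their order was less alike: the rank correlation (rho) of replicate 1 with these 5 libraries was 0.282 to 0.340. The peaks were narrow, with a median of 80 bp and a shortest peak of 51 bp, whereas the shortest peaks of the other 5 lists were 144 to 157 bp. At the same regions the median width was 799 to 954 bp in shSCR and 575 and 706 bp in shG9a_1 replicates 2 and 3. Summits nevertheless lay a median of 31 to 36 bp from those of the other libraries. Relative depth came to 2.36 with a fragment length of 51 bp and to 0.767 to 0.836 with the lengths of the other lists, and its part in the length of the list was not tested.

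The strongest peak of replicate 1 lay in chr7:4681220-4682114, with a fold of 19.1, and this was also the strongest region in shSCR, with folds of 64.9, 118 and 121, against 64.1 and 92.9 in shG9a_1 replicates 2 and 3. The second, chr7:45025587-45026780, had a fold of 12.2 in replicate 1 and 38.3, 59.6 and 44.1 in shSCR. Among the listed genes 11 were called in replicate 1: the nucleolar genes NPM1, NCL and NOP16, the translation genes EIF5A and RPS19, PCBP1 and HNRNPU for RNA-binding proteins, and the metabolic genes NME1, SRM, ENO1 and HK2. No gene of the lists for mitochondria, the cell cycle, stress, the MYC network, H3K9 methylation or epithelial identity was among them. All 11 lay in the strongest decile of shSCR strength. Replicate 1 called 7.33% of all regions in that decile and 0.213% or fewer in each weaker one. The lists differ in strength, and no difference between them was tested. With replicate 1 included, the difference in peak number was -19607.7 (exact permutation test, two-sided: p = 0.1, as small as 20 splits allow), and among the 107 regions shared by all 6 libraries 0 changed rank at an adjusted p of 0.05 (limma), with 8 at an unadjusted p under 0.05.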

How the data were processed

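MYC ChIP-seq peak lists of 6 MCF10A libraries were analysed, as deposited, in build hg19. Per the submitters' processing notes, the tools were MACS2 2.1.0, Picard 2.7.1, STAR 2.5.2a and SAMtools 1.3, and the builds GRCh37 and hg19. For the caller's settings and the read filters, nothing is given in the sources used here. Each list is of 1 library, by its peak names. The deposited columns hold a whole-number score, a fold enrichment (a ratio of pileup to background at the summit), and −log10 p-values and −log10 q-values from the authors' caller. They were used only to rank, filter or describe the peaks of a list. The lists end at a −log10 q of 1.302 or slightly above.

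Peaks on chromosomes 1 to 22 were merged across the 6 lists at an overlap of 1 bp or more. A region counted as called by each library with a peak in it. Ranks of regions called in all 5 libraries of the main comparison, as normal scores, and log2 chromosome shares were tested with limma 3.58.1 (R 4.3.3, Benjamini-Hochberg adjustment, called at 0.05) on 3 shSCR against 2 shG9a_1 libraries. Single values per library were tested by two-sided exact permutation (Python 3.11.15, NumPy 2.4.6). Shares carry Wilson 95% intervals (SciPy 1.17.1). Depth was recovered from fold and p as whole-number pileups, found within 0.001 on the −log10 p scale for 99.9% or more of the peaks of each list, on the assumption of a Poisson caller and 1 genome size setting. Scripts were tested on simulated data. Promoter sequences are RefSeq's, build GRCh38.p14.

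Named regions were the 10 shared regions of smallest p in each direction, since none was called, the 10 strongest shSCR regions in neither shG9a_1 replicate 2 nor 3, up to 5 of the strongest in both and in no shSCR library, and the 10 strongest of replicate 1. Named genes were those with the 3 highest or 3 lowest strengths or the 2 largest rises or falls of a list, and those called in every shSCR and no shG9a_1 library; others named in counts of 5 or fewer or as singled out were chosen after their values were seen. The members and gene lists were chosen with earlier results of these data known. Replicate numbers were not used to pair the samples in the main tests. Deviations of same-numbered libraries from their group means correlated at 0.0057 and 0.038 across shared regions. The deviations of the 2 shG9a_1 libraries mirror each other, so these values cannot show whether same-numbered samples were paired. The alternatives changed the q-value or fold limit, list length, overlap, distance and rank rules, chromosomes and libraries, or added a replicate block. The 9 DNA inputs and the lists of the other hairpin were not used. A gene of the lists is counted but not reported here by name.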

Additional observations from a re-analysis of the deposited data

Results flagged for a closer look

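shG9a_1 replicate 2 listed 10 peaks on the mitochondrial chromosome, which the comparisons on chromosomes 1 to 22 do not use. The shSCR lists held 2, 0 and 0 such peaks and the other shG9a_1 lists 0 and 0. The excess was seen in 1 library of the hairpin and was not tested.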

How the results depend on the processing

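Peak number, covered length and peak width at shared regions kept their direction and their side of the threshold in all alternatives tried for them, but 3 libraries against 2 cannot pass 0.05, so this says nothing of significance. Clustering at equal peak numbers reversed in full lists, to -14.2 percentage points (exact permutation p = 0.1). The share of shSCR regions called in both shG9a_1 replicates, 47.5%, moved to 42.1% at a −log10 q of at least 5, to 75.4% with equal peak numbers and to 23.7% when peaks had to cover 50% of the region. Leaving out each library in turn gave 32.9% (without shSCR replicate 3) to 64.6% (without shG9a_1 replicate 2, then 1 library); differences of -19576.5 to -12441.5 peaks, -7.12 to -4.18 Mb, -229.5 to -149.25 bp and 5.92 to 8.42 percentage points within 10 kb; 0 regions with a changed rank in all 5 cases; and 0 to 7 chromosomes, with 7 without shSCR replicate 3. Of 165 values recomputed for the 20 named rank differences, 0 reversed and 0 passed the test, with limma adjusted p-values of 0.247 to 0.886. These 20 regions were chosen by smallest p and their groups did not overlap, so the lack of reversals was largely set by that choice.

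A limma fit with the replicate number as a block called 0 regions and 0 chromosomes, so the pairing moved no count of calls. For single values per library, the block changed only the permutations, which were swaps within pairs. The differences in peak number (-15610.5), covered length (-5.71 Mb), width (-207.5 bp) and clustering (7.35 points) are therefore the main ones by construction. Each had exact permutation p = 0.25, the smallest that 4 arrangements allow. A peak below the caller's limit is not listed, so an uncalled region is not shown to be unbound. Unequal ChIP efficiency, input depth and antibody recovery between libraries were not measured here.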
